A study of Homo sapiens with 8 samples.

Results

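Ribosome biogenesis factors are the proteins that make ribosomal RNA in the nucleolus, cut and modify it, and fold it with ribosomal proteins into the small and the large ribosomal subunit. They were followed here through 44 gene symbols, taken by name from the deposited table of 20323 genes. The symbols gave 45 rows, because PWP2 names 2 gene identifiers. All 45 rows passed the filter on low counts and were tested. The lowest count of any member in any library was 95, for GAR1.

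The RNA came from H2452, an established human cell line labelled as a biphasic pleural mesothelioma, with a wild-type genotype in both groups. One group of 4 libraries came from cells kept for 48 h in deoxypodophyllotoxin (DPT) at 20 nM, a lignan from plants known to stop microtubules from assembling, and the other group of 4 from cells kept as long in the solvent DMSO, at no more than 0.01%. The design text calls them biological replicates, but no label says which cultures were set up together, so the p-values measure the spread between these libraries. All values come from a single cell line at 1 dose and 1 time.

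In a growing cell, RNA polymerase I transcribes the ribosomal DNA into a long precursor. Box C/D and H/ACA snoRNPs, particles of small nucleolar RNA and protein, methylate it or convert uridines to pseudouridine, and separate assembly lines of helicases, GTPases and scaffold proteins then shape the small and the large subunit. MYC, a transcription factor that drives growth, is known to bind near the starts of many of these genes at the E-box CACGTG.

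Libraries held 14964432 to 17205391 counts, and the totals did not differ between groups (exact permutation test, two-sided, p = 0.314 with 4 libraries a group). 1 library of each group, replicate 3 of DMSO and replicate 2 of DPT, together called the pair here, differed from the rest: interferon-stimulated genes averaged 6.56 and 6.08 log2 CPM (counts scaled to the library total) in the pair against 8.25 to 8.39 elsewhere, and genes of mitosis 7.24 and 7.36 against 6.48 to 6.66. The pair was picked from these same counts, and no label names it. Results from all 8 are followed by those with a term for the pair in the model or without the pair. Of the labelled cell type's markers, the keratins KRT8 and KRT18 stood at 989 and 816 FPKM (read level scaled by gene length and depth) in DMSO, and MSLN, CALB2 and WT1, markers of mesothelial cells, at only 7.97, 7.08 and 4.84 FPKM. All 5 tested fibroblast markers of 10 rows had negative log2 fold changes and 3 of them fell, with the list's sum at 425 to 531 CPM in DMSO and 173 to 274 CPM in DPT and with DCN and LUM at 0 in both groups. Mesothelial and epithelioid markers summed to 3425 to 4944 CPM in DMSO and 2326 to 3706 CPM in DPT, but the 13 markers did not all move 1 way. A positive log2 fold change was found in 4 of them. With all 8 libraries 0 rose and 2 fell, where 5.68% and 5.29% of all 12648 tested genes did. With the term 2 rose and 7 fell, where 16.9% and 17% of all tested genes did. The groups did not overlap in 2 markers with DPT higher and in 4 with DPT lower, against 9.5% and 8.73% of all tested genes. The part of these shifts in the results below was not tested, and in bulk RNA fewer cells of a kind cannot be told apart from less RNA per cell.

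The sequences of the gene starts are shown first, since they are what many of the members share and the choice of members by name did not use them. RefSeq promoter windows of GRCh38.p14, which run from 250 bases before to 50 after the start of transcription, were found for 36 of the 44 symbols. The motif CACGTG reads the same on both strands, so 1 search covers both. It was found in 17 of the 42 windows of members (40.5%, from 17 of 36 genes), in 25.2% of the 119 windows of other ribosome biogenesis genes, in 9.33% of the 14916 windows of tested genes and in 7.26% of all 35116 windows. In each stretch below the E-box is in capitals, with 12 bases on either side, read along the gene from 5′ to 3′. Not shown are the E-boxes of RRP9, NOP14, NOP2, UTP20 and GAR1, which were not called, and of GNL2 and PWP2, which rose. GAR1 had a negative log2 fold change (-0.13). The first 8 genes below rose under DPT, and FBL and PES1, whose changes were not called, are shown beside them.
DDX21: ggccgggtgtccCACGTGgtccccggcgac
WDR43: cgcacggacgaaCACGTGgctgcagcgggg
UTP4: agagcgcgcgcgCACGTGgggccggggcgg
PNO1: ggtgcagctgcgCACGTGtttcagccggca
BYSL: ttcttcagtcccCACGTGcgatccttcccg
GNL3: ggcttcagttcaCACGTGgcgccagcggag
MRTO4: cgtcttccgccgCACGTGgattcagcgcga
LYAR: cggcggcgagtcCACGTGctccccgcggcc
FBL: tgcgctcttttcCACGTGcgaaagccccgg
PES1: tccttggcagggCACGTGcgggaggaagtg

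These stretches lie at chr10:68956604-68956633 (DDX21, plus strand), chr2:28894658-28894687 (WDR43, plus), chr16:69132621-69132650 (UTP4, plus), chr2:68157885-68157914 (PNO1, plus) and chr6:41921515-41921544 (BYSL, plus). The others lie at chr3:52686026-52686055 (GNL3, plus), chr1:19251807-19251836 (MRTO4, plus), chr4:4290068-4290097 (LYAR, minus), chr19:39846356-39846385 (FBL, minus) and chr22:30591880-30591909 (PES1, minus). The E-boxes of members sat close to the start: 16 of the 17 began within 50 bases of it, against 38.3% of the 1575 E-boxes in windows of tested genes. Of the 17, 12 lay after the start, in the first transcribed bases, 4 before it and 1 across it. In DDX21 the motif began 31 bases before the start and in LYAR 64 before it, while in WDR43 it began at transcribed base 4 and in GNL3 at base 7. An E-box was present in 10 of the 15 rising genes that had a window and in 7 of the 21 genes with a window that were not called. Of the genes with no CACGTG in their windows, DKC1, NOP56, NOP16, RRP1 and DDX10 rose, and NCL, NPM1 and the Pol I subunits POLR1A, POLR1B and POLR1C were not called. A match of letters is not evidence that a factor bound there, and the difference between called and uncalled members was not tested.

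The comparison of DPT with DMSO asks how the messages of the ribosome assembly line stand in H2452 cells treated for 48 h with this microtubule inhibitor. With all 8 libraries, 19 of the 45 member rows rose and 0 fell (edgeR's quasi-likelihood test, Benjamini-Hochberg adjusted p under 0.05), where 5.68% of all 12648 tested genes rose and 5.29% fell. At an unadjusted p under 0.05 the counts were 30 and 0, where 13.5% and 13% of all tested genes were higher and lower. DESeq2 called 25 and 0 after adjustment, against 7.05% and 6.96% of the genes it tested. A positive log2 fold change was found in 43 rows, against 49.8% of all tested genes, and the median was 0.26 for members and -0.002 for all tested genes. Changes were small: the largest was 0.70 log2, for MYC, and 12 rows changed by more than 1.3-fold. In 28 rows all 4 DPT libraries lay above all 4 DMSO libraries, which 9.5% of tested genes did, and no row showed the reverse, which 8.73% did.

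**Figure D1:**
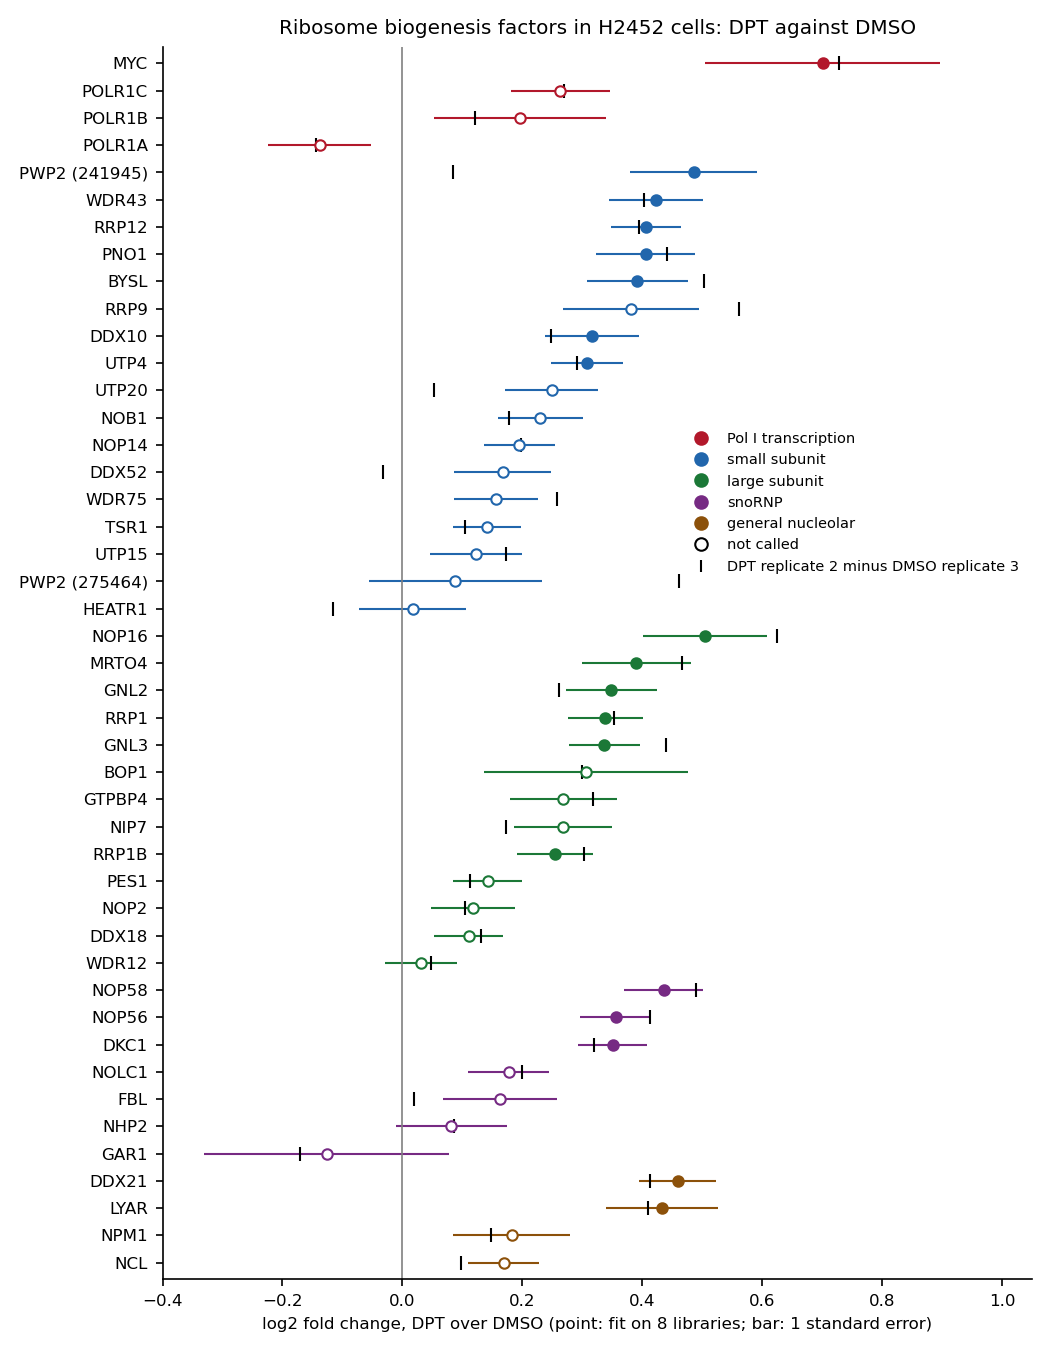
Log2 fold change of each member (x axis, DPT over DMSO) by step of ribosome assembly, with points from the fit on 8 libraries, bars of 1 standard error, filled points for called members and black ticks for DPT replicate 2 minus DMSO replicate 3. Nearly all points lie right of 0, with POLR1A and GAR1 to its left; the 2 identifiers of PWP2 are marked by their last 6 digits.

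With the term for the library pair, 34 member rows rose and 1 fell, against 16.9% and 17% of all tested genes, and without the pair the counts were 35 and 1, against 17% and 17.1%. The row that fell in both was POLR1A. All 19 rows called with 8 libraries were called higher in both of these fits. Between the libraries of the pair, that of DPT was the higher in 41 of the 45 rows, with a median difference of 0.26 log2, where the same difference had a median of -0.001 over all tested genes. The number of member rows that rose depended on single libraries. It was 8, 11, 20 and 11 without DMSO replicates 1, 2, 3 and 4, and 14, 21, 10 and 13 without DPT replicates 1, 2, 3 and 4. The share of all tested genes that rose moved as well, to 2.66%, 2.93%, 6.73% and 2.68% in the first 4 of these fits and to 3.6%, 9.26%, 2.61% and 2.6% in the last 4. Of the 19, 8 were called in every one of these 8 fits: DDX21, NOP58, NOP56, DKC1, RRP12, WDR43, GNL3 and RRP1.

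**Figure D2:**
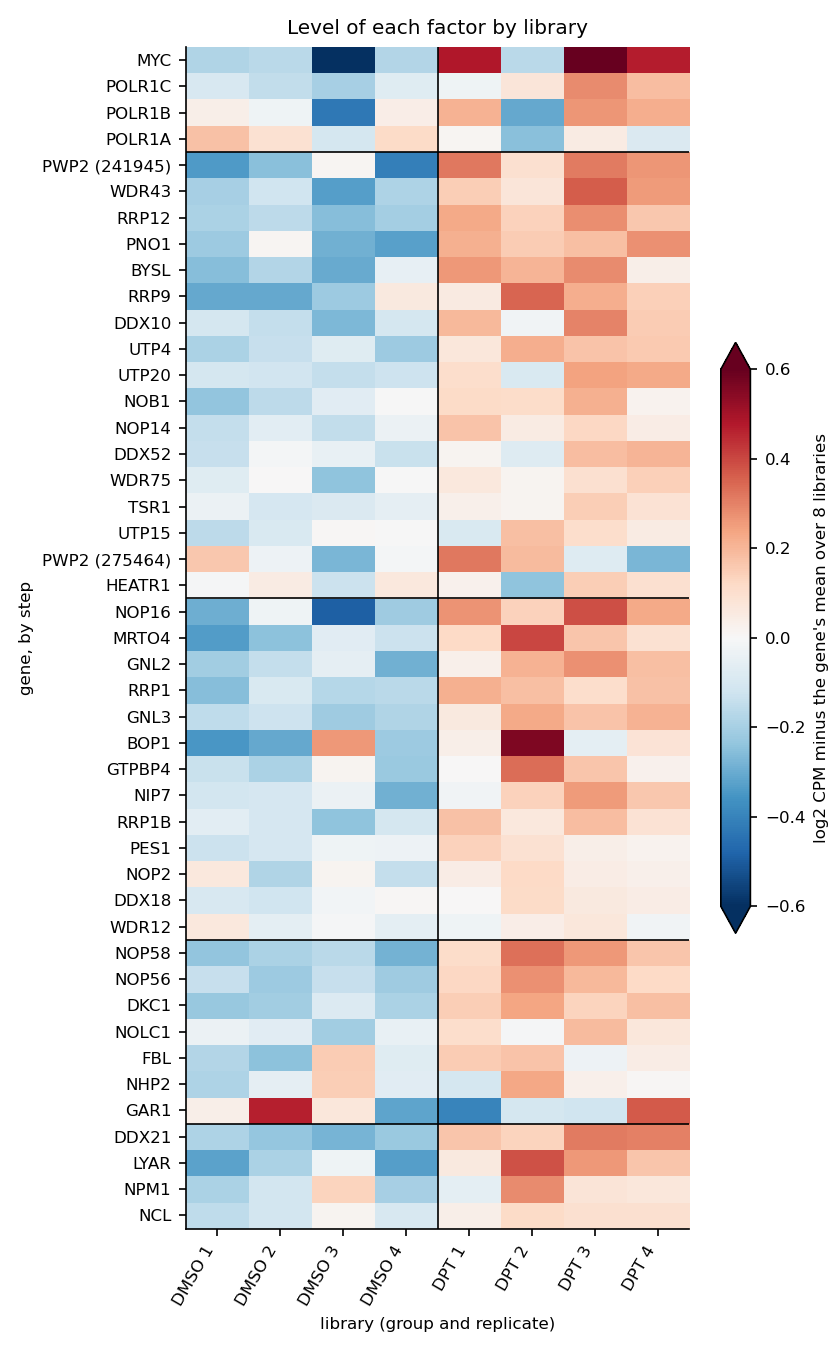
Level of each member row in each library, as log2 CPM minus the gene's mean over the 8 libraries (colour, clipped at 0.6 either way), with steps separated by horizontal lines and DMSO from DPT by the vertical line. In most rows the DMSO columns are mainly blue and the DPT columns mainly red, and in MYC, POLR1B and BOP1 the paired libraries (DMSO 3, DPT 2) differ in colour from the rest of their group.

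Transcription of ribosomal DNA was represented by POLR1A and POLR1B, the pair of large subunits that form the active centre of RNA polymerase I, by POLR1C, a subunit that RNA polymerase III also uses, and by MYC. Of these 4, MYC rose and the 3 polymerase subunits were not called. MYC (ENSG00000136997, chromosome 8, 127735434 to 127741434 of GRCh38) measured 188, 191, 115 and 188 CPM in DMSO replicates 1 to 4, and 297, 191, 325 and 296 CPM in DPT replicates 1 to 4. Both paired libraries were low for their group, and DPT replicate 2 stood level with the 3 other DMSO libraries, so the groups overlapped by a fraction of 1 CPM. The means were 170.5 ± 37.0 and 277.1 ± 59.3 CPM (SD, n = 4 per group), a 1.63-fold rise (log2 fold change 0.70, SE 0.196, edgeR adjusted p = 0.0494). The call held without DMSO replicate 3 or DPT replicate 2 and was lost without any one of the 6 other libraries (edgeR adjusted p 0.0874 to 0.137). With the term for the pair the log2 fold change was again 0.70 (edgeR adjusted p = 6.95e-09), and within the pair it was 0.73.

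POLR1A measured 127, 119.6, 104 and 122 CPM in DMSO replicates 1 to 4 and 113, 94.4, 116 and 106 CPM in DPT replicates 1 to 4. The groups overlapped, and in each the library of the pair was the lowest; between these libraries, and among the remaining 6, DPT lay below DMSO. Its log2 fold change was -0.14 (SE 0.0862, edgeR adjusted p = 0.351), and it was called lower with the term (-0.14, edgeR adjusted p = 0.0276). POLR1B measured 86.5, 82.8, 62.6 and 86.6 CPM in DMSO and 97.5, 68.1, 101 and 98.0 CPM in DPT, in the same order of replicates. It was low in both paired libraries, and in the other 6 the DPT libraries lay above the DMSO libraries. Its log2 fold change was 0.20 (SE 0.144, edgeR adjusted p = 0.43), and it was called higher with the term (0.19, edgeR adjusted p = 0.00415). POLR1C measured 27.8, 26.8, 25.9 and 28.3 CPM in DMSO and 29.2, 31.3, 36.2 and 33.9 CPM in DPT, and its groups did not overlap (log2 fold change 0.26, SE 0.0823, edgeR adjusted p = 0.0715). POLR1A, the largest subunit, thus had a log2 fold change of opposite sign to those of POLR1B and POLR1C, and with the term it was called lower and they were called higher; the difference between them was not tested.

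**Figure D3:**
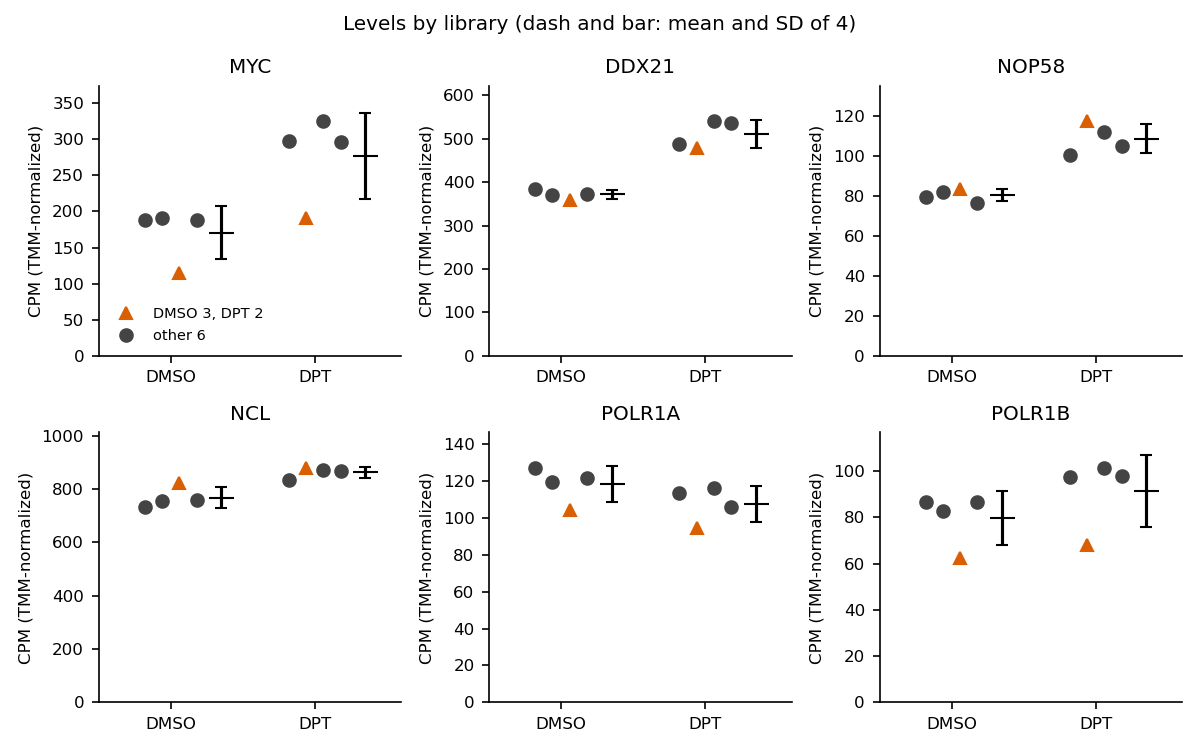
TMM-normalized CPM (y axis, from 0) of 6 members in each DMSO and DPT library, with triangles for DMSO replicate 3 and DPT replicate 2, circles for the other 6 libraries, and a dash and bar for the mean and SD of 4. DDX21, NOP58 and NCL separate the groups completely, while MYC, POLR1B and POLR1A do so only when triangle is set against triangle and circles against circles, with DPT higher for MYC and POLR1B and lower for POLR1A.

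Small subunit factors act on the precursor while it is still being transcribed. Of their 17 rows 7 rose and 0 fell, their median log2 fold change was 0.25, and in 12 the groups did not overlap, with DPT higher. Of all tested genes 5.68% rose and 5.29% fell, and 9.5% had non-overlapping groups with DPT higher. At an unadjusted p under 0.05 the counts were 12 and 0 (13.5% and 13% of all tested genes), and with DESeq2 11 and 0 (7.05% and 6.96%). With the term 13 rose and 0 fell, where 16.9% and 17% of all tested genes did. The count of 7 became 2 without DMSO replicate 1 and 4 without DMSO replicate 2 or 4 or DPT replicate 1, 3 or 4. In those fits 2.6% to 3.6% of all tested genes rose. WDR43, a scaffold of the complex that loads first on the precursor, measured 94.4, 99.7, 86.2 and 95.4 CPM in DMSO replicates 1 to 4 and 120.3, 114, 139.6 and 129.5 CPM in DPT replicates 1 to 4. The lowest DPT library exceeded the highest DMSO library, and the gene rose 1.34-fold (log2 fold change 0.42, SE 0.0785, edgeR adjusted p = 0.0103). UTP4, of the same complex, rose by 0.31 log2 (edgeR adjusted p = 0.013), a call lost without DMSO replicates 1 or 4 (edgeR adjusted p 0.0515 to 0.0536). The other members of that complex gave smaller values: WDR75 had a log2 fold change of 0.16, UTP15 one of 0.12 and HEATR1 one of 0.02, and none was called. HEATR1, its largest protein, measured 132, 137, 122 and 139 CPM in DMSO replicates 1 to 4 and 135, 112, 147 and 142 CPM in DPT replicates 1 to 4. Its groups overlapped (SE 0.0897, edgeR adjusted p = 0.927), and DPT replicate 2 was its lowest library.

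PWP2, a scaffold of the next complex to load, needs care because its 2 identifiers shared the reads in a ratio that differed between libraries. ENSG00000241945 (chromosome 21, 44107290 to 44131181) measured 16.5, 17.6, 21.1 and 15.8 CPM in DMSO and 26.0, 22.4, 26.0 and 25.1 CPM in DPT, for replicates 1 to 4. ENSG00000275464, which GENCODE 29 names FP565260.1 and places on the same chromosome at 5130871 to 5154734, measured 18.6, 16.3, 13.7 and 16.5 CPM in DMSO and 20.7, 18.9, 15.7 and 13.7 CPM in DPT. The first rose by 0.49 log2 (SE 0.106, edgeR adjusted p = 0.0189) and the other, with overlapping groups, had a log2 fold change of 0.09 (SE 0.144, edgeR adjusted p = 0.754). The sum of both, an analysis chosen after the values were seen, rose by 0.31 log2 (SE 0.0743, edgeR adjusted p = 0.028), with 32.2 to 35.1 CPM in DMSO and 38.9 to 46.7 CPM in DPT. The call for the first identifier held without DMSO replicate 3 or DPT replicate 2 and was lost without any one of the others (edgeR adjusted p 0.0539 to 0.0661).

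Among later small subunit factors, RRP12, an export and maturation factor, rose by 0.41 log2 and kept its call without any single library. PNO1, which holds the immature end of the small subunit RNA, rose by 0.41 log2, and BYSL, which works beside it, rose by 0.39. Of the DEAD-box helicases of this step, DDX10 rose by 0.32 and DDX52 had a log2 fold change of 0.17 (edgeR adjusted p = 0.222). Calls were lost for PNO1 without DMSO replicate 1, DMSO replicate 4 or DPT replicate 4 (edgeR adjusted p 0.0525 to 0.0556), for BYSL without either of DMSO replicates 1 and 2 or of DPT replicates 1 and 3 (0.0528 to 0.0661), and for DDX10 without any library other than DPT replicate 2 (0.0505 to 0.0986). NOB1, the nuclease that makes the final cut, TSR1, a GTPase-like assembly factor, NOP14 and UTP20 had non-overlapping groups and log2 fold changes of 0.23, 0.14, 0.20 and 0.25 without being called. RRP9, a protein of the snoRNP that guides the earliest cleavages, had a log2 fold change of 0.38 and overlapping groups (edgeR adjusted p = 0.0609). With the term, RRP9, NOB1, TSR1, NOP14, UTP20 and WDR75 were also called higher.

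Large subunit factors gave a similar count, with 6 of 13 higher, 0 lower and a median log2 fold change of 0.27. Over all tested genes 5.68% rose and 5.29% fell. At an unadjusted p under 0.05 the counts were 9 and 0 (13.5% and 13% of all tested genes), and with DESeq2 7 and 0 (7.05% and 6.96%). In 8 of the 13 the groups did not overlap, with DPT higher (9.5%), and with the term 10 rose and 0 fell (16.9% and 17%). The count of 6 became 2 without DMSO replicate 1 or DPT replicate 3, 3 without DMSO replicates 2 or 4, and 4 without DPT replicate 4. In those fits 2.6% to 2.93% of all tested genes rose. NOP16, a small nucleolar protein of the early large subunit particle, measured 28.4, 34.3, 24.9 and 30.1 CPM in DMSO replicates 1 to 4 and 42.0, 38.4, 45.6 and 40.9 CPM in DPT replicates 1 to 4. Every DPT library exceeded every DMSO library, and the gene rose 1.42-fold (log2 fold change 0.50, SE 0.103, edgeR adjusted p = 0.0147). MRTO4, which holds the place of a stalk protein on the immature subunit, measured 41.9, 44.6, 50.6 and 48.4 CPM in DMSO and 57.6, 69.9, 59.4 and 56.3 CPM in DPT. Its highest library was DPT replicate 2, and it rose 1.31-fold (log2 fold change 0.39, SE 0.0905, edgeR adjusted p = 0.0247). The NOP16 call was lost without DMSO replicate 1 or DPT replicate 3 (edgeR adjusted p 0.0519 to 0.0527), and the MRTO4 call without the same libraries or without DMSO replicate 2 or 4 (0.0615 to 0.081).

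The nucleolar GTPases GNL2 and GNL3 rose by 0.35 and 0.34 log2, and GTPBP4, another GTPase of this step, had a log2 fold change of 0.27 with overlapping groups (edgeR adjusted p = 0.0874). The paralogs RRP1 and RRP1B rose by 0.34 and 0.25 log2. The calls of GNL3 and RRP1 held without any single library; that of GNL2 held without replicate 3 of DMSO or without either of DPT replicates 1 and 2, and was otherwise lost (edgeR adjusted p 0.0544 to 0.0679) and that of RRP1B without any library other than DMSO replicate 3 or DPT replicate 2 (0.0665 to 0.101) and with no filter on low counts (0.0543). PES1, BOP1 and WDR12 form the PeBoW complex, which is needed for processing of large subunit RNA, and none of them was called with 8 libraries. PES1 had a log2 fold change of 0.14 and BOP1 one of 0.31, and both were called higher with the term. BOP1 was high in both paired libraries, at 36.0 CPM in DMSO replicate 3 against 23.6 to 25.8 CPM in the other DMSO libraries and 44.3 CPM in DPT replicate 2 against 28.9 to 31.9 CPM in the other DPT libraries. WDR12 measured 54.6, 50.2, 52.0 and 50.1 CPM in DMSO replicates 1 to 4 and 51.4, 53.8, 54.8 and 51.5 CPM in DPT replicates 1 to 4, with a log2 fold change of 0.03 (SE 0.0598, edgeR adjusted p = 0.791). Its libraries were intermixed, and it was called in none of the 3 fits. NOP2, an RNA methyltransferase, and DDX18, a helicase, had overlapping groups and log2 fold changes of 0.12 and 0.11, and NIP7 had non-overlapping groups and one of 0.27 (edgeR adjusted p = 0.0649).

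Of the 7 snoRNP proteins and chaperones 3 rose and 0 fell, and this count stayed at 3 whichever single library was left out. The median log2 fold change was 0.18. Over all tested genes 5.68% rose and 5.29% fell, and 2.6% to 9.26% rose with single libraries left out. At an unadjusted p under 0.05 the counts were 4 and 0 (13.5% and 13% of all tested genes), and with DESeq2 3 and 0 (7.05% and 6.96%). NOP58, a core protein of box C/D particles, measured 79.3, 81.9, 83.6 and 76.7 CPM in DMSO replicates 1 to 4 and 100.7, 117, 112 and 105 CPM in DPT replicates 1 to 4. The groups were well apart, and the gene rose 1.35-fold (log2 fold change 0.44, SE 0.0662, edgeR adjusted p = 0.00438). NOP56, which pairs with NOP58 on these particles, measured 125, 118, 125 and 118 CPM in DMSO and 149.7, 166, 157 and 149.2 CPM in DPT, and rose 1.28-fold (log2 fold change 0.36, SE 0.0593, edgeR adjusted p = 0.0066). FBL, the methyltransferase of the same particles, measured 41.1, 39.2, 51.6 and 44.1 CPM in DMSO and 51.5, 52.3, 45.4 and 47.9 CPM in DPT. DMSO replicate 3 lay among the DPT libraries, so the groups overlapped (log2 fold change 0.16, SE 0.0947, edgeR adjusted p = 0.315), and FBL was called higher in the 6 libraries without the pair (edgeR adjusted p = 0.0265) but not with the term (edgeR adjusted p = 0.0596).

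Within the H/ACA particles, which make pseudouridine, DKC1, the catalytic subunit, rose by 0.35 log2 (SE 0.058, edgeR adjusted p = 0.00642). Its partners NHP2 and GAR1 were not called in any of the 3 fits. GAR1 measured 7.99, 10.8, 8.17 and 6.26 CPM in DMSO replicates 1 to 4 and 5.93, 7.25, 7.18 and 10.0 CPM in DPT replicates 1 to 4, the lowest CPM of any member, on a scale that does not account for gene length. Its libraries were intermixed, and its log2 fold change of -0.13 had an SE of 0.204 (edgeR adjusted p = 0.75). NHP2 had a log2 fold change of 0.08 (edgeR adjusted p = 0.632). NOLC1, a chaperone that accompanies both kinds of particle, had non-overlapping groups and a log2 fold change of 0.18, which was called with the term and in the 6 libraries but not in all 8.

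The general nucleolar proteins include the most abundant members, and among these 4 the edgeR calls with all 8 libraries fell on the less abundant DDX21 and LYAR and not on NCL and NPM1. Scaled by gene length, mean levels in DMSO ran from 5.06 FPKM for the minor PWP2 identifier to 720 FPKM for NPM1, with NCL at 318, NHP2 at 117 and DDX21 at 79.1 FPKM. Of these 4 proteins 2 rose and 0 fell (5.68% and 5.29% of all tested genes), and 4 and 0 with the term (16.9% and 17%). At an unadjusted p under 0.05 the counts were 3 and 0 (13.5% and 13% of all tested genes). With DESeq2 they were 3 and 0 (7.05% and 6.96%), with NCL also higher. DDX21 (ENSG00000165732, chromosome 10, 68956128 to 68985073), an RNA helicase that acts on ribosomal DNA transcription and on snoRNAs, measured 383, 371, 359 and 374 CPM in DMSO replicates 1 to 4 and 489, 478, 540.4 and 537 CPM in DPT replicates 1 to 4. The groups were far apart compared with their spread (log2 fold change 0.46, SE 0.0642, edgeR adjusted p = 0.00318). LYAR, a nucleolar zinc finger protein of growing cells, measured 64.5, 70.7, 79.1 and 64.1 CPM in DMSO and 83.9, 105, 96.4 and 90.4 CPM in DPT, and rose 1.35-fold (log2 fold change 0.43, SE 0.093, edgeR adjusted p = 0.0182). In both groups the library of the pair was its highest, and the call did not hold without any one of DMSO replicates 1, 2 and 4 and DPT replicate 3 (0.054 to 0.0663), each of which left DDX21 as the only called gene of the 4. NCL, nucleolin, measured 732, 754, 822 and 760 CPM in DMSO and 832, 880, 869 and 868 CPM in DPT. The groups did not overlap, but DMSO replicate 3 came close to the lowest DPT library (log2 fold change 0.17, SE 0.0593, edgeR adjusted p = 0.101). NPM1, nucleophosmin, measured 914, 966, 1145 and 910 CPM in DMSO and 1001, 1268, 1102 and 1092 CPM in DPT. DMSO replicate 3 exceeded 3 of the DPT libraries, and the log2 fold change of 0.18 was not called (SE 0.0976, edgeR adjusted p = 0.272). NCL and NPM1 were called higher with the term (edgeR adjusted p = 0.00238 and 0.00243).

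Summed over the 45 rows, members took 0.515%, 0.525%, 0.542% and 0.515% of counts in DMSO replicates 1 to 4 and 0.618%, 0.639%, 0.664% and 0.642% in DPT replicates 1 to 4. Every DPT library lay above every DMSO library, and of the pair DMSO replicate 3 was the highest of its group while DPT replicate 2 lay within its own. MYC did not share that order, since DPT replicate 2 held as much MYC message as DMSO replicates 1, 2 and 4, libraries outside the pair. Against DMSO replicate 3, the other library of the pair, its MYC was 0.73 log2 higher. In DPT replicate 2, 39 of the 45 member rows stood above their own median over the 8 libraries. This compares with 5 to 8 rows in each DMSO library and 35 to 41 in the other DPT libraries. The part of MYC in the levels of the other members was not tested. Interferon-stimulated genes differed more between the pair and the other libraries than between the groups: of 24 none was called with all 8 libraries (0 and 0 at an unadjusted p under 0.05 and with DESeq2), while 0 rose and 13 fell with the term and 3 and 13 in the 6 libraries, and the median difference within the pair was -0.50 log2. Of 20 tested mitosis genes 0 and 0 were called with all 8 (the same at an unadjusted p under 0.05 and with DESeq2), and 4 rose and 3 fell with the term. Over all tested genes, 5.68% rose and 5.29% fell with all 8 libraries. The shares were 16.9% and 17% with the term, and 17% and 17.1% in the 6 libraries. The part of either list in the result for the members was not tested.

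**Figure D4:**
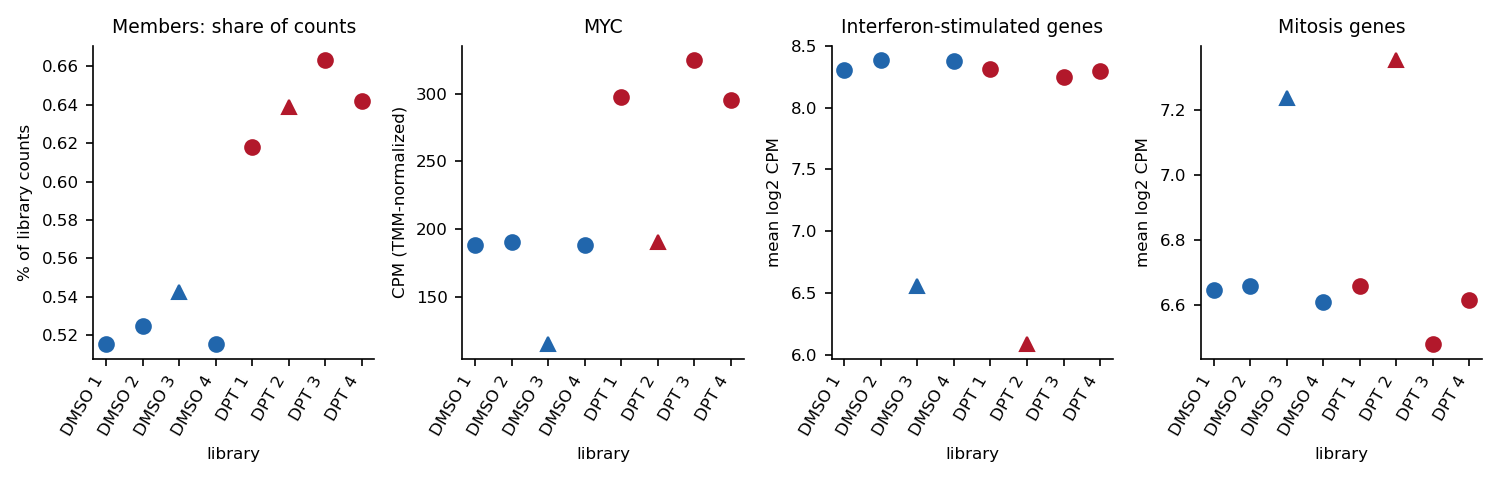
Values by library: the share of counts in the 45 member rows (%), MYC (TMM-normalized CPM), and the mean log2 CPM of interferon-stimulated and of mitosis genes; blue is DMSO, red is DPT, triangles mark DMSO replicate 3 and DPT replicate 2, and the y axes do not start at 0. The member share separates the groups, while MYC also falls, and the interferon and mitosis genes mainly shift, in the triangles.

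A wider list of ribosome biogenesis genes, drawn up by function with earlier results of these data known, held 121 rows of which 119 were tested. Of these 25 rose and 0 fell (edgeR; 59 and 0 at an unadjusted p under 0.05, 31 and 0 with DESeq2), the median log2 fold change was 0.21, and 43 had non-overlapping groups with DPT higher. Of all tested genes 5.68% rose and 5.29% fell, and 13.5% and 13% did at the unadjusted p. With DESeq2 the shares were 7.05% and 6.96%, and 9.5% of tested genes had non-overlapping groups with DPT higher. With the term 69 rose and 1 fell, the helicase DDX47, and in the 6 libraries 60 rose and 2 fell, DDX47 and NOP9. The shares over all tested genes were 16.9% and 17% with the term, and 17% and 17.1% in the 6 libraries. The count of 25 became 9, 14 and 11 without DMSO replicates 1, 2 and 4, 10 and 11 without DPT replicates 3 and 4, and 42 without DPT replicate 2. The share of all tested genes that rose moved too. It was 2.66%, 2.93% and 2.68% without those DMSO replicates, 2.61% and 2.6% without DPT replicates 3 and 4, and 9.26% without DPT replicate 2. For Pol I, 3 of 12 rose, led by POLR1F, a polymerase subunit (0.35 log2, edgeR adjusted p = 0.00689), and TAF1D, of the promoter selectivity factor (0.42, edgeR adjusted p = 0.0263). For the small subunit 9 of 45 rose, led by IMP4, part of the early cleavage complex (0.41, edgeR adjusted p = 0.00567), and RIOK1, a kinase of late maturation (0.47, edgeR adjusted p = 0.0147).

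For the large subunit 13 of 48 rose, led by PAK1IP1 and CCDC86. PAK1IP1, a nucleolar WD-repeat protein, measured 36.0, 35.2, 36.8 and 37.5 CPM in DMSO replicates 1 to 4 and 49.4, 53.5, 55.4 and 55.0 CPM in DPT replicates 1 to 4, with no overlap (log2 fold change 0.55, SE 0.0637, edgeR adjusted p = 0.00136). CCDC86 rose by 0.51 (edgeR adjusted p = 0.00244). With the term the counts of these 3 steps were 7, 28 and 30 higher and 0, 1 and 0 lower. Leaving out single libraries gave 1 to 5 for Pol I, where 3 were called (1 without DMSO replicate 1, 2 or 4 or DPT replicate 3 or 4, and 5 without DMSO replicate 3). It gave 1 to 18 for the small subunit in place of 9 (1 without DMSO replicate 1 or DPT replicate 3, 3 without DMSO or DPT replicate 4, 4 without DMSO replicate 2, and 18 without DPT replicate 2). For the large subunit the range was 7 to 19 in place of 13 (7 without DMSO replicate 1 or 4 or DPT replicate 4, 8 without DMSO replicate 2 or DPT replicate 3). Of the 14 other snoRNP genes, mainly assembly factors, 0 rose and 0 fell with edgeR and with DESeq2 (4 and 0 at an unadjusted p under 0.05). Their median log2 fold change was 0.13, and 4 rose with the term, where 16.9% of all tested genes did. Among 9 tested partners and antagonists of MYC, 0 rose and 1 fell (edgeR; 2 and 3 at an unadjusted p under 0.05, 1 and 2 with DESeq2). With the term 3 rose and 3 fell, in the 6 libraries 2 and 3, and without DPT replicate 2 the counts were 1 and 2. Over all tested genes 16.9% rose and 17% fell with the term, and 17% and 17.1% in the 6 libraries. The gene that fell with all 8 was MXD4, a repressor that competes with MYC for the partner MAX, at 53.8, 52.2, 66.2 and 55.7 CPM in DMSO and 36.6, 37.5, 32.0 and 28.4 CPM in DPT. Its groups did not overlap, and it fell by 0.76 log2 (SE 0.109, edgeR adjusted p = 0.00368). MAX itself had a log2 fold change of -0.01 (edgeR adjusted p = 0.966).

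**Figure D5:**
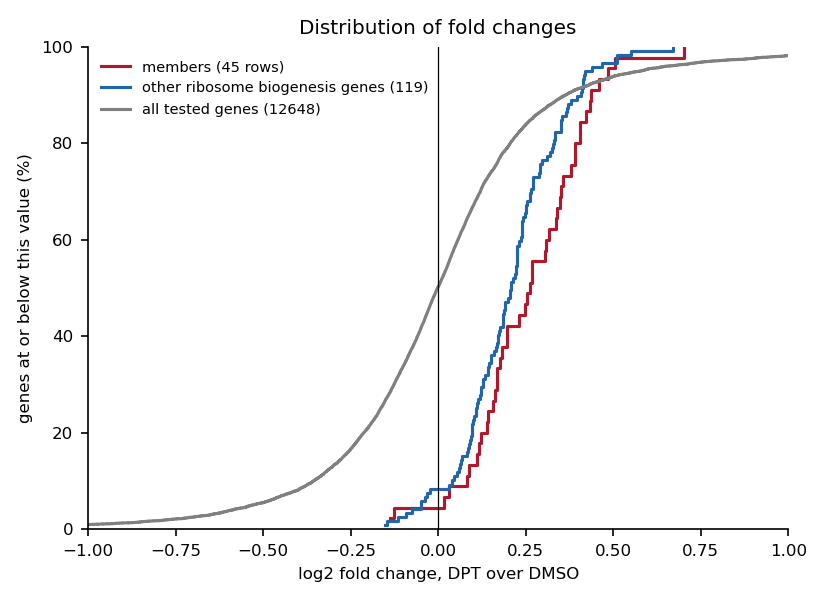
Share of genes (y axis, %) at or below each log2 fold change of DPT over DMSO (x axis, drawn from -1 to 1, which leaves 344 of all tested genes outside). The curves of the 45 member rows (red) and of the 119 other ribosome biogenesis genes (blue) are shifted right of the curve of all tested genes (grey), with medians of 0.26, 0.21 and -0.002.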

How the data were processed

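Polyadenylated RNA from 8 libraries was sequenced, per the labels' protocols. The submitters' processing notes name the build hg38 and the tools HISAT2, RSEM, DESeq2, fastp 0.18.0 and StringTie 1.3.1. Their roles, the annotation and the strand setting were not given in the sources used here. Overlapping and antisense genes may therefore share reads. The deposited table holds expected counts and FPKM per gene, per the file headers; 10.8% of the expected counts were not whole numbers. The FPKM values, scaled by the authors, served only to compare levels between genes.

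Expected counts were rounded and tested with edgeR 4.0.16 in R 4.3.3 (filterByExpr with a minimum count of 10 and total of 15, TMM, quasi-likelihood test, intercept and treatment) on all 8 libraries. Adjusted p is Benjamini-Hochberg over 12648 genes, called under 0.05, and SE belongs to the fitted log2 fold change. CPM are TMM-normalized, except the summed CPM of the marker lists, which were scaled by the library total alone. For log2 CPM the prior count was 2. In the smallest library 1 CPM is about 15 counts. The fit was tested on simulated data. Alternatives were DESeq2 1.42.0, RLE scaling, no filter, a replicate block, the pair term, the 6 libraries and leaving out each library. Scaling by library size alone and summing PWP2 were chosen after seeing the data. The pair was also picked from these counts and not from a label. Positions are from GENCODE 29 and sequences from RefSeq, GRCh38.p14.

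The members and lists were chosen with earlier results of these data known. Values per library are given for DDX21, NCL, NPM1, FBL, MYC, POLR1A, POLR1B and, in each step, the 2 members with the highest and the 1 with the lowest log2 fold change. Of the wider list, the 2 called genes of each direction with the smallest adjusted p per step are named, with all called MYC partners; genes named beyond these rules were chosen after their values were seen. The leukocyte list gave 2 tested of 10 markers (CD68, CD14), the endothelial list 2 of 6, and none of either was called with all 8 libraries.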

Additional observations from a re-analysis of the deposited data

Results flagged for a closer look

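In 4 cases a library lay far from the other 3 of its group, by Dixon's ratio of the gap to the range at the 95% level, among 90 tested combinations of member row and group; chance flags about 1 in 20. MYC stood at 115 CPM in DMSO replicate 3 and at 188 to 191 CPM in the other DMSO libraries. POLR1B stood at 62.6 CPM in DMSO replicate 3, against 82.8 to 86.6 CPM, and at 68.1 CPM in DPT replicate 2, against 97.5 to 101 CPM in the other DPT libraries. NOP2 stood at 84.4 CPM in DPT replicate 2 and at 79.2 to 80.1 CPM in the other DPT libraries. All 4 cases fall in DMSO replicate 3 or DPT replicate 2, the libraries with low interferon-stimulated and high mitosis genes; the part of those genes in these values was not tested.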

How the results depend on the processing

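Of the count of 19 higher and 0 lower member rows, the term for the pair made 34 and 1 and the 6 other libraries 35 and 1, and leaving out single libraries gave 8 to 21 and 0 throughout. For the wider list of 25 and 0 the same settings gave 69 and 1, 60 and 2, and 9 to 42. No filter, RLE and DESeq2 kept each count within 1.5 times, as did summing PWP2 and scaling by library size alone (25 member rows), which moved the median of all tested genes to 0.04 and of members to 0.30. With the replicate number as a block, 4 member rows and 3 genes of the wider list were higher and 0 lower, where all tested genes gave 171 higher and 174 lower in place of 718 and 669. The labels do not say that a number marks a shared culture, so the numbers were not taken as pairs. Deviations of same-numbered libraries from their group means correlated at 0.204, -0.314, -0.396 and 0.209 for numbers 1 to 4. No DPT library correlated best with the DMSO library of its own number. The group means include the pair, whose own deviations correlated at 0.676, so these values cannot show which libraries share a culture. Directions turned only in uncalled rows near 0: HEATR1 to -0.026, -0.030 and -0.011 without DMSO replicate 3, DPT replicate 3 and DPT replicate 4 (-0.030 to 0.092 over single libraries left out), the PWP2 identifier ENSG00000275464 to -0.034 in the 6 libraries and -0.0096 without DPT replicate 1 (-0.0096 to 0.18), and GAR1 to 0.020 without DMSO replicate 2 (-0.29 to 0.020). The cause of these changes was not tested. Fits without a library have fewer samples. The biological coefficient of variation was 14.9% without the term and 6.3% with it, for a pair picked from these same counts. GAR1 had the lowest counts of any member, at 95 to 164 per library, and the part of depth in its spread was not tested.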
